A study of Homo sapiens with 6 samples.

Results

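The vacuolar proton pump and the proteins of the lysosome that it acidifies were followed at the transcript level in the human neuroblastoma line SH-SY5Y after exposure to manganese. The group holds 39 genes of the 18132 that had a probe set with a single gene symbol. The list goes by the function of the encoded proteins. Of the 39, 18 encode subunits or accessory proteins of the pump (V-ATPase), 18 encode lysosomal hydrolases, membrane proteins or other lumenal proteins, and 3 encode the MiT/TFE transcription factors TFEB, TFE3 and MITF. Where a gene had several probe sets, the brightest by its 6-array mean was used.

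The arrays came from 3 cultures given 100 µM manganese for 24 h, a dose stated as the median lethal concentration divided by 5, and from 3 untreated cultures of the same line. The medium of both groups was a mix of MEM and F12 supplemented with serum (10%). Replicates are called biological in the labels, which do not say how the cultures were separated, so the p-values measure the spread between these arrays. The comparison asks how the transcripts of exposed cells differ from those of untreated cells at this sublethal dose. All cultures are of 1 tumour line, so the values describe that line and not neurons of the brain.

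The V-ATPase is a rotary machine. Its cytosolic V1 sector splits ATP and turns a central shaft, and its membrane-embedded V0 sector carries protons into the lumen of lysosomes, endosomes, the Golgi and secretory and synaptic vesicles. The acid pH activates lysosomal hydrolases and drives exchange of ions, including metals, across the organelle membrane. TFEB and its relatives bind short sequences built on CACGTG, known as CLEAR elements, in the promoters of many of these genes and can raise pump and hydrolase transcripts together.

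The values are log2 RMA signals, which are comparable for a probe set across arrays but not between different probe sets. Of the 39 genes, 38 lay above the 40th percentile of their array on at least 3 arrays and were tested. CTSZ, which encodes cathepsin Z, was the exception, at 3.38, 3.68 and 3.20 in manganese cultures and 3.15, 3.46 and 3.35 in controls, against a 40th percentile between 4.37 and 4.40. Over all 13407 genes tested, control 1 stood apart, with correlations between 0.967 and 0.981 to the other arrays, where all other pairs reached at least 0.984. The mean of 24 poly(A) spike-in control probe sets was between 7.70 and 7.83 in the manganese arrays and 7.69 in control 2, but 6.09 in control 1 and 5.82 in control 3. Of the noradrenergic markers 7 of 8 were measured, and all 7 were clearly expressed, with means between 9.83 and 13.12. Their summed log2 level was 80.8 to 81.5 in manganese cultures and 82.3 to 83.2 in controls. Markers of fibroblasts passed the filter for 5 of 8 and those of leukocytes for 4 of 6, at means of at most 7.63 and 6.21, and their sums overlapped between the groups for both fibroblasts (37.3 to 38.1 in manganese, 37.5 to 38.5 in controls) and leukocytes (27.9 to 28.9 in manganese, 27.7 to 28.0 in controls). COL3A1, LUM, TWIST2, PTPRC and CD14 lay below the filter. The part of these differences in the results was not tested. In a bulk sample a smaller number of cells with a transcript cannot be told apart from less of that transcript per cell.

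No gene of the pump or the lysosome passed the test at this dose. Of the 38 tested genes, 0 had a limma adjusted p under 0.05, against 0.142% of all tested genes (0.134% higher and 0.00746% lower). An unadjusted p under 0.05 was found for 3 members, all lower in manganese, against 12.8% of all tested genes (5.97% higher and 6.85% lower). The 3 were the pump genes ATP6V0A2, ATP6V1E1 and ATP6V1D. The groups did not overlap for 4 members, these 3 on the lower side and the hydrolase gene CTSB on the higher, against 19.8% of all tested genes (10.5% higher and 9.26% lower). These were 7.89% and 10.5% of the 38 members, both below the share in all genes when either direction is counted. In the lower direction alone, the 7.89% lies slightly above the 6.85% of all tested genes. Lower values at an unadjusted p under 0.05 were found for 16.7% of the 18 pump genes and 0% of the 17 tested lysosomal genes. That contrast was not tested. The 95% intervals of 37 of the 38 genes lay within 1 log2 unit of 0. The exception was ATP6V1E1, whose interval ran from -1.06 to -0.25 on the log2 scale.

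**Figure D1:**
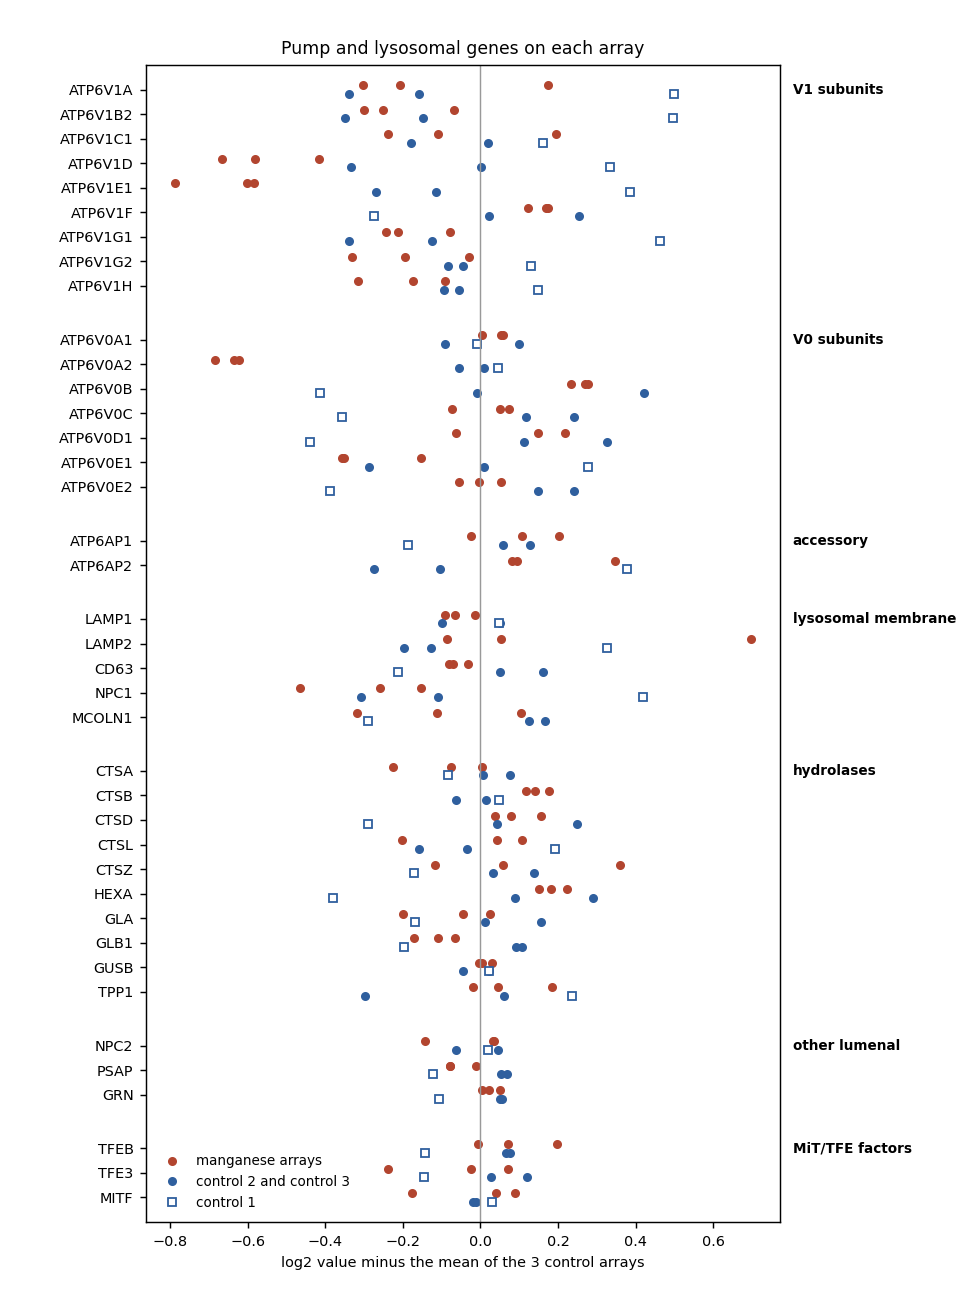
Each row is a gene of the pump or the lysosome. Points give the log2 value on each array minus the mean of the 3 control arrays (manganese in red above, control in blue below, control 1 as an open square). The manganese points of ATP6V0A2, ATP6V1E1 and ATP6V1D lie left of all controls, and control 1 is far right for most V1 subunits and far left for ATP6V0B, ATP6V0C, ATP6V0D1 and ATP6V0E2.

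ATP6V0A2 had the smallest p among the members. It encodes an isoform of the large a subunit, which forms the proton path of V0, and it places the pump in the Golgi and endosomes. Its values were 6.71, 6.75 and 6.77 in manganese cultures and 7.43, 7.33 and 7.40 in control cultures. All 3 manganese arrays lay below all 3 controls, and control 1 was no outlier for this probe set. The means were 6.74 ± 0.03 in manganese and 7.39 ± 0.05 in controls (SD, n = 3 each), a linear ratio of 0.639. The log2 difference was -0.65 (SE 0.098, 95% interval -0.87 to -0.42), with a limma adjusted p of 0.0819, which misses the threshold. Without control 1 the difference was -0.62, and the adjusted p was 0.0659.

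The other probe sets of ATP6V0A2 gave smaller differences. The second read 5.20, 5.18 and 5.22 in manganese and 6.08, 5.48 and 5.45 in controls, a difference of -0.47 with no overlap. Control 1 was the high array for this probe set, and its difference was -0.28 against control 2 alone. The third, the dimmest, read 4.85, 4.71 and 4.71 in manganese and 4.74, 4.90 and 4.82 in controls, a difference of -0.06 with overlapping groups. The mean of the 3 probe sets differed by -0.39, with a limma adjusted p of 0.204.

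ATP6V0A1, the sister isoform found on synaptic vesicles and lysosomes of neurons, was at 7.34, 7.28 and 7.33 in manganese and 7.27, 7.19 and 7.38 in controls. The groups overlapped, and the difference was 0.04 (95% interval -0.20 to 0.28). The difference between the responses of the isoforms was not tested.

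ATP6V1E1 encodes subunit E, part of the peripheral stalks that hold the ATP-splitting head of V1 still. It was at 7.94, 8.13 and 8.15 in manganese cultures and 9.12, 8.46 and 8.61 in controls. Every manganese array lay below every control, but control 1 lay 0.58 above the mean of the other controls. The difference was -0.66 (SE 0.18, limma adjusted p 0.241) with all controls and -0.46 without control 1. Its second probe set also separated the groups, with a difference of -0.80, from 6.73, 6.99 and 6.92 in manganese and 8.10, 7.42 and 7.53 in controls.

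ATP6V1D encodes subunit D of the rotating central shaft. It was at 6.18, 6.09 and 6.34 in manganese and 7.09, 6.42 and 6.76 in controls. The groups did not overlap, by a margin of less than 0.1 between manganese 3 and control 2. The difference was -0.55 (SE 0.17, limma adjusted p 0.293), and it was -0.39 without control 1 and -0.22 against control 2 alone. All 3 of its probe sets separated the groups, with differences between -0.59 and -0.32.

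**Figure D2:**
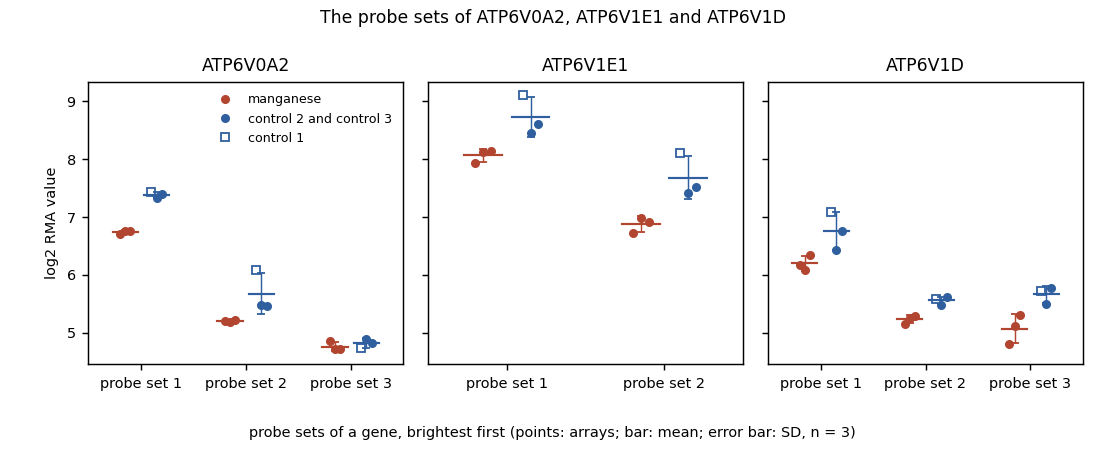
Log2 RMA values of each probe set that passed the filter, for ATP6V0A2, ATP6V1E1 and ATP6V1D, with manganese arrays in red left of control arrays in blue. Bars are means and error bars are SD (n = 3). The groups are apart for all probe sets but the third of ATP6V0A2.

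The promoters of these 3 genes, 250 bases before the start site, are shown because these genes had the smallest p among the members. The sequences are from RefSeq (GRCh38.p14), 5′ to 3′ on the gene's strand, for chr12:123712103-123712352 on the plus strand (ATP6V0A2), chr22:17628823-17629072 on the minus strand (ATP6V1E1, the first of its 2 listed starts) and chr14:67359805-67360054 on the minus strand (ATP6V1D). Capitals mark GGGCGG or its reverse complement, the GC box, which was found 2 times, 1 time and 0 times in these bases.
ATP6V0A2: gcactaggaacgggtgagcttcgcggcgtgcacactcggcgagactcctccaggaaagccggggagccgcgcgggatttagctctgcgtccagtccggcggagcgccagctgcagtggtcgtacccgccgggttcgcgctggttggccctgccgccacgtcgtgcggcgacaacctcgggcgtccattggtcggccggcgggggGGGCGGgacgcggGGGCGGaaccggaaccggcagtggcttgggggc
ATP6V1E1: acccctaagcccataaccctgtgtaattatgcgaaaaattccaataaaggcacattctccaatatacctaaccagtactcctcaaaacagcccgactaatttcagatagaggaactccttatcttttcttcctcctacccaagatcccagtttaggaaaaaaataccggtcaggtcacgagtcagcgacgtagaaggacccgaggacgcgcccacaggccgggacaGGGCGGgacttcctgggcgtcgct
ATP6V1D: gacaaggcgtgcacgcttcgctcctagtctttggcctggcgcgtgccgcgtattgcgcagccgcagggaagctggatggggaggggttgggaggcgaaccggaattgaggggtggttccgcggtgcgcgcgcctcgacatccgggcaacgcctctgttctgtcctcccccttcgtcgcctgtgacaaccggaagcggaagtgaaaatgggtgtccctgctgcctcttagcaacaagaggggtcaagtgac
The share of G and C was 73.2% for ATP6V0A2, 50% for ATP6V1E1 and 63.6% for ATP6V1D, beside medians of 67.8% for the 30 members with a listed promoter and 58% for 27305 genes. A GC box was present in 80% of those members and 48.3% of all genes, counting both strands and the 50 bases after the start site as well. CACGTG was not found in any of the 3 promoters.

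The values of the other V1 genes depended on control 1. Of the 9 V1 genes, 8 had negative differences with all controls and with each array centred on its median, and 7 with arrays centred on housekeeping genes. Their median was -0.18, beside 0.02 for all tested genes. Without control 1, 4 of the 9 were negative and the median was 0.02, and against control 2 alone 6 were negative and the median was -0.10. Control 1 held the highest of the 6 values for 7 of the 9.

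ATP6V1A, the catalytic subunit that splits ATP, was at 8.19, 8.09 and 8.57 in manganese and 8.90, 8.06 and 8.24 in controls. Control 1 lay 0.75 above the other controls, and the sign of the difference turned from -0.11 to 0.14 without it. ATP6V1B2, its non-catalytic partner in the head, was at 9.53, 9.30 and 9.35 in manganese and 10.10, 9.25 and 9.45 in controls. Here too the difference turned, from -0.21 with all controls to 0.04 without control 1.
ATP6V1G1, a stalk subunit, was at 8.31, 8.34 and 8.48 in manganese and 9.02, 8.43 and 8.22 in controls, with differences of -0.18 and, without control 1, 0.05. ATP6V1G2, its isoform of neurons, was at 7.98, 7.84 and 8.15 in manganese and 8.31, 8.09 and 8.13 in controls. Its groups overlapped, and its difference was -0.18 with all controls and -0.12 without control 1.
ATP6V1H, a subunit that regulates ATP splitting, was at 8.20, 8.43 and 8.34 in manganese and 8.67, 8.46 and 8.42 in controls, a difference of -0.19 (95% interval -0.47 to 0.08). Only manganese 2 reached the control range. ATP6V1C1, which links the stalks to V0, differed by -0.05, and its 5.21, 5.34 and 5.64 in manganese spanned the 5.61, 5.27 and 5.46 of controls. The 3 ATP6V1C1 probe sets above the filter ranged from -0.25 to -0.05, and the one at -0.25 did not overlap between the groups. ATP6V1F, the shaft partner of subunit D, was the only V1 gene with a positive difference, 0.15. It was at 11.30, 11.29 and 11.25 in manganese and 10.85, 11.38 and 11.15 in controls, and its difference was 0.02 without control 1.

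V0 genes other than ATP6V0A2 had differences between -0.29 and 0.26, and control 1 was the lowest of the 6 arrays for 4 of the 7. The median over the 7 V0 genes was 0.02, and -0.15 without control 1. The proteolipids that form the rotating ring are encoded by ATP6V0C and ATP6V0B. ATP6V0B was at 12.46, 12.45 and 12.41 in manganese and 11.77, 12.60 and 12.17 in controls, so that the manganese arrays lay inside the control range, with a difference of 0.26 (95% interval -0.19 to 0.71). The ATP6V0B difference was 0.05 without control 1 and -0.16 against control 2 alone. ATP6V0C was at 10.57, 10.55 and 10.42 in manganese and 10.14, 10.62 and 10.74 in controls, a difference of 0.02. Its only probe set is of a type whose probes can match other transcripts. The brightest probe sets of ATP6V0D1, CD63, CTSA and HEXA are of the same type.
ATP6V0D1, which couples the shaft to the ring, was at 10.08, 10.01 and 9.80 in manganese and 9.43, 10.19 and 9.98 in controls. The difference was 0.10 with all controls and -0.12 without control 1, and the groups overlapped. The small membrane subunits ATP6V0E1 and ATP6V0E2 differed by -0.29 and -0.0023. ATP6V0E1 was at 9.14, 8.93 and 8.94 in manganese and 9.57, 9.001 and 9.30 in controls, and ATP6V0E2 at 10.00, 10.06 and 9.95 in manganese and 9.62, 10.25 and 10.15 in controls. Control 1 was the highest array for ATP6V0E1 and the lowest for ATP6V0E2.

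The accessory proteins take part in assembly of the pump. ATP6AP1 was at 9.06, 9.15 and 8.93 in manganese and 8.77, 9.08 and 9.01 in controls, a difference of 0.10. ATP6AP2, also known as the prorenin receptor, was at 8.81, 8.79 and 9.06 in manganese and 9.09, 8.61 and 8.44 in controls. Without control 1 the manganese arrays of ATP6AP2 were all above the controls, by 0.36 on average, but its 4 probe sets ranged from -0.32 to 0.17 with all controls.

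**Figure D3:**
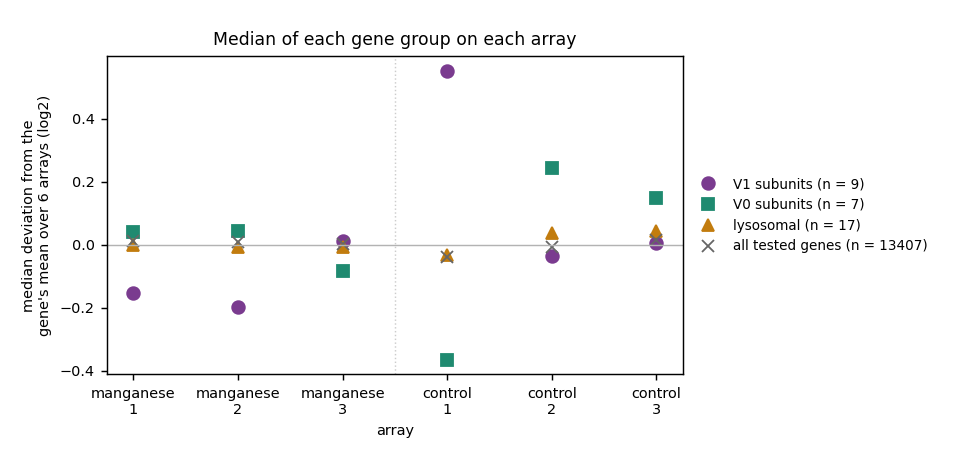
Median over the genes of a group of the log2 deviation from each gene's mean over the 6 arrays, for V1 subunits (9 genes), V0 subunits (7), lysosomal genes (17) and all 13407 tested genes, with manganese arrays left of control arrays. In control 1 V1 subunits stand at 0.55 and V0 subunits at -0.37, while lysosomal genes stay within 0.05 of 0 on every array.

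Control 1 was the highest array for 7 of the 9 V1 genes and the lowest for 1. Of the 7 V0 genes, it was the lowest array for 4 and the highest for 2. The median deviation of V1 genes from their means over the 6 arrays was -0.15, -0.20 and 0.01 on the manganese arrays and 0.55, -0.04 and 0.0037 on the controls. For V0 genes it was 0.04, 0.04 and -0.08 on the manganese arrays and -0.37, 0.24 and 0.15 on the controls. Control 1 held the highest or the lowest of the 6 values for 88.9% of the 18 pump genes, 52.9% of the 17 lysosomal genes and 65.1% of all tested genes. Control 1 was also low in spike-in signal, but so was control 3, and the part of this in the result was not tested.

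Pump and lysosomal genes were compared as groups. The median difference was -0.08 over the 18 pump genes and -0.03 over the 17 tested lysosomal genes, beside 0.02 over all tested genes, and 11 of the 18 and 10 of the 17 were negative. The gap between these medians was -0.06. Array by array, the pump median minus the lysosomal median was -0.0049, -0.04 and -0.06 in manganese and 0.27, -0.01 and 0.0023 in controls. Apart from control 1 the arrays of both groups lay within 0.06 of 0. These 18 pump genes differed more among themselves, from -0.66 to 0.26, than these 17 lysosomal genes, from -0.29 to 0.22. That holds for the members only, as lysosomal hydrolases outside the group ranged from -0.81 to 0.41. Lysosomal membrane proteins outside it ranged from -0.47 to 0.34.

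**Figure D4:**
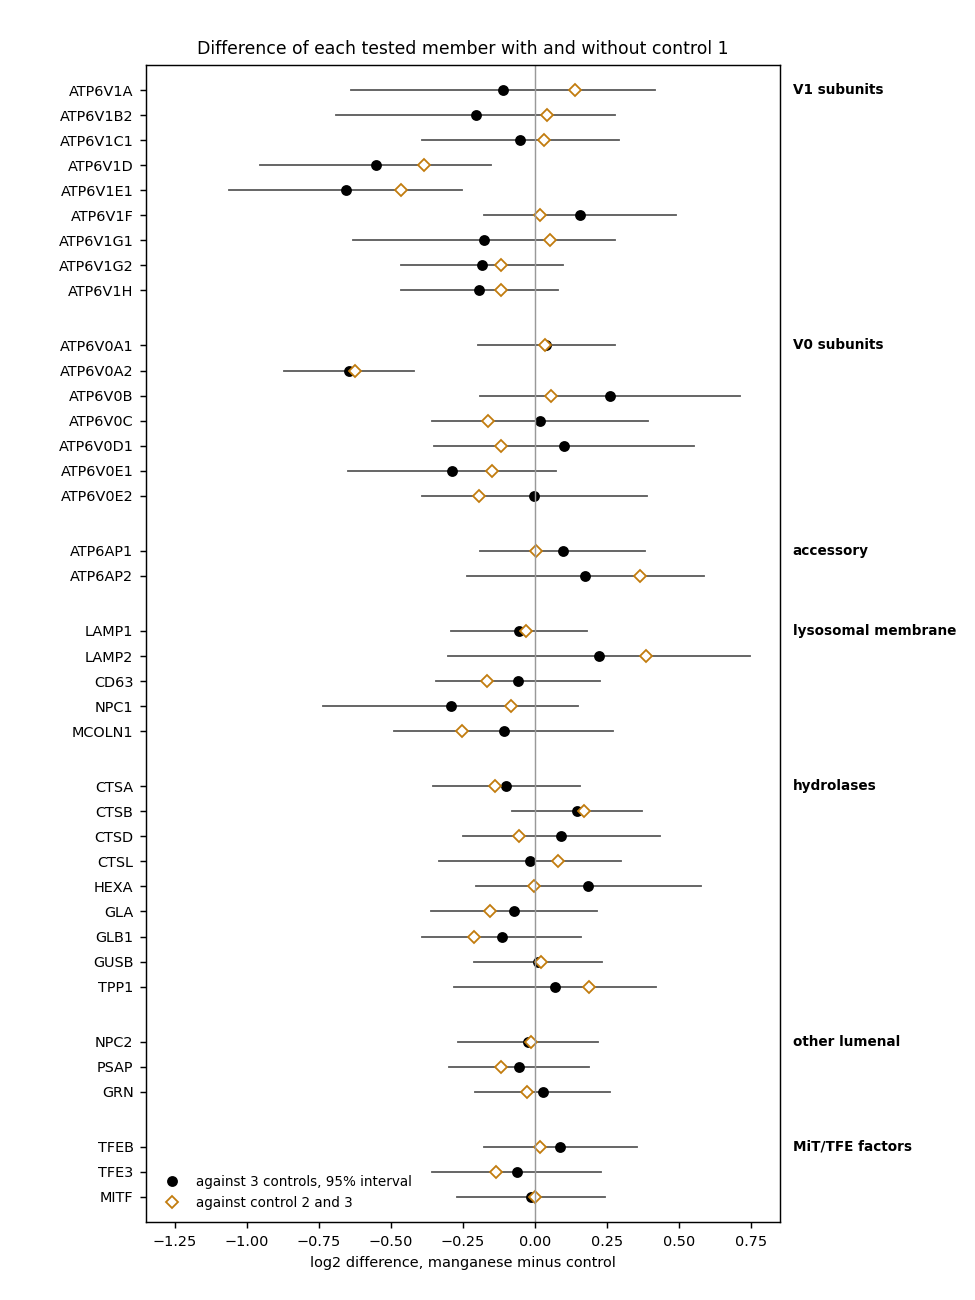
Log2 difference, manganese minus control, of the 38 tested genes with all 3 controls (black, with the 95% interval from limma) and without control 1 (open diamonds). ATP6V0A2, ATP6V1E1 and ATP6V1D have intervals left of 0, and the differences of most V1 subunits move towards 0 or past it when control 1 is left out.

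Of the lysosomal membrane proteins, LAMP1 and CD63 were near 0, while LAMP2, NPC1 and MCOLN1 had a wider spread. LAMP1, a major glycoprotein of the lysosomal membrane, was at 10.89, 10.84 and 10.81 in manganese and 10.95, 10.81 and 10.96 in controls, a difference of -0.06 (95% interval -0.29 to 0.18). LAMP2, its partner with a role in chaperone-mediated autophagy, was at 6.19, 6.05 and 6.83 in manganese and 6.46, 5.94 and 6.01 in controls. Its difference was 0.22, with manganese 3 as the high array, but the other LAMP2 probe set above the filter read -0.14. The remaining 7 of the 9 LAMP2 probe sets were too dim to pass the filter. CD63, a tetraspanin of late endosomes and exosomes, was at 11.93, 11.89 and 11.88 in manganese and 11.75, 12.13 and 12.02 in controls, a difference of -0.06.
NPC1, the membrane protein that exports cholesterol from lysosomes, was at 5.64, 5.43 and 5.74 in manganese and 6.32, 5.59 and 5.79 in controls. Its difference was -0.29 with all controls and -0.08 without control 1. MCOLN1, the cation channel TRPML1 of the lysosome, was at 9.13, 8.92 and 8.71 in manganese and 8.74, 9.15 and 9.20 in controls. The groups overlapped with all controls, and the difference was -0.11, or -0.25 without control 1.

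Of the 9 hydrolases tested, 0 had an unadjusted p under 0.05, and their median difference was 0.0099, with 5 positive and 4 negative. CTSB, the cysteine protease cathepsin B, was at 10.51, 10.47 and 10.45 in manganese and 10.38, 10.27 and 10.35 in controls. All manganese arrays were above all controls, a small difference of 0.14 (SE 0.098, limma adjusted p 0.547, linear ratio 1.11). Its 4 probe sets gave 0.10 to 0.17, and CTSB was 0.17 higher without control 1.
CTSD, the aspartic protease cathepsin D, was at 7.32, 7.20 and 7.24 in manganese and 6.87, 7.41 and 7.20 in controls, a difference of 0.09. CTSL, cathepsin L, was at 6.81, 6.74 and 6.50 in manganese and 6.89, 6.66 and 6.54 in controls, and CTSA, the protective protein of galactosidase and sialidase, at 8.38, 8.30 and 8.15 in manganese and 8.29, 8.38 and 8.45 in controls. Groups overlapped for all 3 genes.
TPP1, a peptidase lost in a childhood form of neuronal ceroid lipofuscinosis, was at 8.02, 7.96 and 8.16 in manganese and 8.21, 7.68 and 8.04 in controls. The 8 TPP1 probe sets above the filter ranged from -0.27 to 0.27.
Of the glycosidases, HEXA, the Tay-Sachs enzyme, was at 8.63, 8.66 and 8.70 in manganese and 8.10, 8.77 and 8.57 in controls, and its difference of 0.19 was -0.0047 without control 1. GLB1, the beta-galactosidase, was at 9.61, 9.56 and 9.50 in manganese and 9.48, 9.78 and 9.77 in controls, with -0.12 and, without control 1, -0.21. GLA, the alpha-galactosidase lost in Fabry disease, was at 9.18, 9.25 and 9.03 in manganese and 9.06, 9.24 and 9.38 in controls. GUSB, the beta-glucuronidase also used as a reference gene, was at 9.36, 9.39 and 9.36 in manganese and 9.38, 9.31 and 9.38 in controls, a difference of 0.0099 (95% interval -0.21 to 0.23).

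By their brightest probe sets, the lumenal proteins that are not hydrolases stayed within 0.06 of 0. NPC2, which hands cholesterol to NPC1, was at 9.17, 9.35 and 9.35 in manganese and 9.34, 9.25 and 9.36 in controls. PSAP, the precursor of the saposins that activate sphingolipid breakdown, was at 12.03, 12.10 and 12.03 in manganese and 11.99, 12.17 and 12.18 in controls. GRN, which encodes progranulin, was at 8.85, 8.87 and 8.90 in manganese and 8.74, 8.90 and 8.90 in controls. The 95% intervals of all 3 lay between -0.30 and 0.26. A second NPC2 probe set, nearly as bright, differed by -0.19 without overlap, and another by 0.12. Probe sets above the filter ranged from -0.06 to 0.08 for PSAP and from -0.05 to 0.09 for GRN.

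The transcripts of the transcription factors differed by less than 0.1. TFEB was at 7.69, 7.62 and 7.82 in manganese and 7.48, 7.70 and 7.69 in controls, a difference of 0.09 (95% interval -0.18 to 0.35). TFE3 was at 5.76, 5.85 and 5.54 in manganese and 5.64, 5.81 and 5.90 in controls, and MITF at 5.60, 5.55 and 5.34 in manganese and 5.54, 5.50 and 5.50 in controls. Groups overlapped for each of them. These factors are controlled mainly by their place in the cell, which arrays do not measure.

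CLEAR-type sequences were looked up in the RefSeq promoters of the members, from 250 bases before to 50 after the start site, on both strands. CACGTG, the core bound by TFEB and by other E-box factors, was present for 9 of the 30 members with a listed promoter (30%) and for 8.77% of 27305 genes. The longer TCACGTGA, which contains the core, was present for 5 members (16.7%) and 1.18% of all genes. With a further G before it and C after it, the match was present for 2 members (6.67%) and 0.421% of all genes. The stretches below show the sites that this search found in the pump and lysosomal genes, so all share the core by construction. Each has 30 bases with the core in capitals, read 5′ to 3′ on the gene's strand. Where a promoter holds several sites, 1 is shown, with the longest match found in that promoter.
ATP6V1G1: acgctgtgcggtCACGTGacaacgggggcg
ATP6V0B: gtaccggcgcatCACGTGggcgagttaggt
ATP6V0D1: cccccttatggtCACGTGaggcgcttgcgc
ATP6V0E2: tcccttctgcatCACGTGgggactgcgcct
LAMP1: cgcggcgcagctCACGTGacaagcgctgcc
CD63: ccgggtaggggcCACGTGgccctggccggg
MCOLN1: gggctaccgggtCACGTGaccgaggcacag
CTSA: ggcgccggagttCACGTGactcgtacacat
CTSD: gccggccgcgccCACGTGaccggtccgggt
The sites of ATP6V1G1 and MCOLN1 are the longest matches. The stretches lie, for the pump genes, at chr9:114587699-114587728 (ATP6V1G1, plus strand), chr1:43974909-43974938 (ATP6V0B, plus strand), chr16:67481199-67481228 (ATP6V0D1, minus strand) and chr7:149872884-149872913 (ATP6V0E2, plus strand). For the lysosomal genes they lie at chr13:113297226-113297255 (LAMP1, plus strand), chr12:55729172-55729201 (CD63, minus strand), chr19:7522598-7522627 (MCOLN1, plus strand), chr20:45891298-45891327 (CTSA, plus strand) and chr11:1763957-1763986 (CTSD, minus strand), all in GRCh38.p14. The 9 genes with CACGTG had a median difference of -0.06, with 6 of 9 negative and a range from -0.18 to 0.26. The 20 tested members whose promoter lacked it had a median of -0.02, with 11 negative. None of the 9 had an unadjusted p under 0.05. A match describes the letters in this window only.

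No tested gene of the wider pathway passed the test either. Lists of other pump subunits and regulators, other lysosomal hydrolases, other lysosomal membrane proteins, the mTORC1, Rag and folliculin machinery that holds TFEB in the cytosol, and hydrolase sorting held 98 genes, of which 79 were tested. Of these, 0 passed the limma test at an adjusted p of 0.05, and at an unadjusted p under 0.05 there were 5 higher and 9 lower, beside 5.97% higher and 6.85% lower of all tested genes.

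Among other pump genes, 9 of 14 were tested, with a median of -0.03 and 6 negative. OXR1, a TLDc-domain protein of a family that includes V1-binding proteins, was 0.30 higher without overlap (limma adjusted p 0.361), at a dim signal of 4.55 in manganese and 4.25 in controls. DMXL2 and WDR7, the rabconnectins that help V1 join V0, differed by -0.31 and -0.34 with overlapping groups, and by 0.08 and -0.03 against control 2 alone. Differences against control 2, here and below, rest on 1 control array. It was the control that correlated most with each manganese array (0.990 to 0.994). ATP6V1B1, the B isoform known from kidney, differed by -0.17.
Of the other hydrolases 26 of 33 were tested, with a median of 0.01, 4 at an unadjusted p under 0.05 higher and 2 lower, beside 12.8% of all tested genes in either direction. Control 1 was the highest array for 10 of the 26 and the lowest for another 10. PPT1, a thioesterase lost in infantile ceroid lipofuscinosis, had means of 8.04 in manganese and 8.86 in controls, a difference of -0.81 (limma adjusted p 0.317), and -0.35 against control 2 alone, and its probe sets ranged from -0.81 to -0.14. CTSH, an aminopeptidase, had means of 8.02 in manganese and 7.66 in controls, a difference of 0.37 (limma adjusted p 0.278), and 0.42 against control 2, with another probe set at 0.06. CTSK differed by -0.52, and by -0.18 against control 2. IDS, the iduronate sulfatase, differed by 0.31, and by 0.18 against control 2, although other IDS probe sets went as low as -0.38.

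Other lysosomal membrane genes had a median of -0.04 over 18 tested. TPCN1, an endolysosomal cation channel, differed by -0.30 (limma adjusted p 0.335) and by -0.39 against control 2, but a TPCN1 probe set read 0.13. SLC38A9, the arginine sensor, differed by -0.39, SCARB2, a receptor for glucocerebrosidase, by -0.47, and OSTM1, the partner of the chloride exchanger CLCN7, by 0.34. Against control 2 these 3 were at -0.12, -0.07 and 0.46. The smallest differences among the probe sets of SLC38A9 and SCARB2 were -0.07 and -0.16.
In the mTORC1 list 11 of 15 tested genes were negative, with a median of -0.13, and 5 had an unadjusted p under 0.05, all lower, beside 6.85% of all tested genes. Control 1 was the highest of the 6 arrays for 9 of the 15. MTOR, the kinase itself, had means of 6.56 in manganese and 7.26 in controls, a difference of -0.70 (limma adjusted p 0.268), and -0.26 against control 2, with its probe sets between -0.70 and -0.36. FNIP2, a folliculin partner, differed by -0.49, and by -0.21 against control 2. The Ragulator genes LAMTOR2 and LAMTOR5 differed by -0.26 and -0.28, or by -0.38 and -0.23 against control 2. The remaining gene of these 5, TSC1, differed by -0.59 with overlapping groups, and by -0.10 against control 2. Another TSC1 probe set read -0.04. In the sorting list, with 11 tested and a median of 0.06, GGA3, an adaptor for hydrolase receptors, differed by -0.26 without overlap, and by -0.20 against control 2, but another GGA3 probe set read 0.06. IGF2R, the mannose 6-phosphate receptor, differed by -0.41 and by 0.04 against control 2, GNPTG by 0.26 and GGA1 by 0.14, all with overlapping groups.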

How the data were processed

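Biotin-labelled cRNA from 6 µg of total RNA was measured on 6 one-colour Affymetrix arrays. The deposited values are log2 signals, for which the submitters' processing notes name RMA and the Affymetrix Expression Console software. RMA sets all arrays to a common distribution and so removes any shift shared by most genes. No version of these tools was found in the labels. Platform annotation named 1 gene for 44994 of 49395 probe sets, and 44967 of these matched RefSeq by Entrez number. Several symbols were given for 1832.

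Probe sets were kept where 3 or more arrays exceeded their own 40th percentile, and the brightest stood for a gene. The difference, manganese minus control, came from lmFit and eBayes (limma 3.58.1, R 4.3.3) with no covariate. P-values are two-sided, with Benjamini-Hochberg adjustment over 13407 genes and a threshold of 0.05. The number of arrays limits precision. The 39 genes and the pathway lists were chosen with earlier results of these data known. All 39 members are named, and up to 4 genes by smallest p from each other pathway list. TSC1 is named as well, to complete the mTORC1 genes with an unadjusted p under 0.05. Medians of lists are descriptions without a test. The code was tested on simulated data. Alternatives changed the filter, probe set rule, variance model, array weights, scaling, replicate block and the arrays used.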

Additional observations from a re-analysis of the deposited data

How the results depend on the processing

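With 3 arrays a group, differences well under 2-fold cannot be resolved for single genes. The count of 0 members called held in every alternative but array weights, where the estimate of the weights did not converge and limma called 7 members among 3945 genes. The lysosomal median was -0.0597 with array weights and 0.0532 with arrays centred on housekeeping genes. Leaving out single arrays gave 0 members called each time, pump medians from -0.18 to -0.0258, lysosomal medians from -0.05 to -0.0033 and gaps between them from -0.17 to 0.027. The pump median was -0.18 without control 2 and without manganese 3. Over the alternatives ATP6V0A2 ranged from -0.67 to -0.39, ATP6V1E1 from -0.79 to -0.39 and ATP6V1D from -0.72 to -0.22. The limma adjusted p of ATP6V0A2 was 0.000513 with array weights, and otherwise ran from 0.0548, without control 2, to 0.514. Of 606 member values under alternatives, 67 changed sign, none of them called under the alternative. The main fit called 0 members, so no called value could reverse. Over all genes 19 were called, 18 of them higher. The count was 50 with arrays centred on their median (38 higher, 12 lower), 202 with housekeeping genes (148 higher, 54 lower), 5 against control 2 alone, 43 without control 2 and 0 without control 3 or any manganese array, with 832 to 1223 at an unadjusted p under 0.05. Deviations from each gene's group mean correlated at -0.31, 0.15 and -0.27 between same-numbered arrays, and from -0.44 to 0.50 between the others. With 3 arrays a group, these values cannot tell whether the numbers pair the cultures. The replicate block gave 0 members and 6 genes called. The cause of these changes was not tested.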
